A study of Mus musculus with 10 samples.

Results

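The contractile and calcium-buffering genes of fast muscle fibres were followed by symbol in the count and TPM tables of gastrocnemius muscle. The 10 genes were listed by name as fast light chains, troponins, actin and their partners. The list was drawn up with earlier results of these data known, though its rule used no measured value. All 10 were found among the 18025 genes of the tables. The filter on low counts left 12697 genes, these 10 among them. They are the myosin light chain genes Myl1 and Mylpf, the fast troponin genes Tnni2, Tnnt3 and Tnnc2, the tropomyosin gene Tpm1, the skeletal actin gene Acta1, and Actn3, Mybpc2 and Pvalb. There were 5 COPD libraries and 5 control libraries, all from C57BL/6 mice of wild type genotype whose age is given as 8 weeks. COPD stands for chronic obstructive pulmonary disease, which the title of the series says was modelled with cigarette smoke. The labels give no sex, length of exposure or hour of collection, and do not say that each library came from its own animal, so p-values measure the spread between these libraries.

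A muscle fibre contracts when calcium released from the sarcoplasmic reticulum binds troponin C on the thin filament of actin, tropomyosin and troponin, which lets the myosin heads of the thick filament bind actin. Most sarcomeric proteins exist as fast and slow forms encoded by separate genes, and a fibre type is recognised by the set it makes. The mouse gastrocnemius is mostly a fast muscle, and these 10 genes encode fast forms or proteins that are abundant in fast fibres.

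The libraries held 14085854 to 17251034 expected counts. The 10 genes together took 15.2% to 18.3% of the counts in COPD and 11.5% to 17.7% in control. Per transcript length, in TPM, they took 24.2% to 28.9% in COPD and 18.5% to 27.8% in control, so that the ranges of the groups overlapped on both scales. A different share of fast fibres and a different level of these transcripts per fibre cannot be told apart in whole tissue. Y-linked transcripts (Ddx3y, Eif2s3y and Kdm5d) were present in all 5 controls and in COPD replicates 2 and 3, while COPD replicates 1, 4 and 5 held 4, 3 and 3 counts of them. Along the first principal component COPD replicate 5 had a score among those of the controls, at -21.9 against -23.9 to -10.04. Summed markers of muscle fibres (Ckm, Myh4, Myh1, Atp2a1, Des and Myog) were abundant in every library, at 61850 to 81860 TPM in COPD and 52710 to 79270 TPM in control. Myog added little to the sum, at 4.68 to 14.9 TPM. Summed macrophage markers (8 genes) ranged from 30.4 to 84.0 TPM in COPD and from 66.0 to 133 TPM in control, with 7 of 8 log2 fold changes below 0. Summed tendon markers (6 genes, Mkx under 1 TPM in every library) ranged from 42.3 to 102 TPM in COPD and from 31.2 to 56.5 TPM in control. Of the 5 tendon markers tested, 4 had log2 fold changes above 0, 3 at an unadjusted p under 0.05 (edgeR), and Scx was at -0.25. Summed satellite-cell markers (Pax7, Myf5 and Vcam1) ranged from 1.72 to 3.21 TPM in COPD and from 2.89 to 4.98 TPM in control. Of their log2 fold changes 3 of 3 were below 0, 2 at an unadjusted p under 0.05 (edgeR). Of all tested genes, 48% had a log2 fold change above 0 and 14.6% an unadjusted p under 0.05. The part of these cells in the results was not tested.

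Skeletal actin was the most abundant of the 10. Acta1, which encodes the actin of the thin filament, had 46914, 47834, 45512, 50339 and 46814 TPM in COPD replicates 1 to 5, against 47939.6, 38721, 52469.8, 26682 and 44787 TPM in control replicates 1 to 5. It stood first among all 18025 genes by mean TPM over the libraries. COPD libraries lay close together, while control replicate 4 was far below the other controls and control replicate 3 was the highest library of all. Tnnt3, the fast troponin T that ties the troponin complex to tropomyosin, stood second at 41686 ± 4346 TPM in COPD and 41067 ± 2189 TPM in control (SD, n = 5 each), and Acta1 was above it in 8 of 10 libraries.

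The calcium sensor of the complex, Tnnc2 (fast troponin C), came next, below Tnnt3 in all 10 libraries, at 33430.4 ± 4359 TPM in COPD and 28996 ± 3098 TPM in control (SD, n = 5 each). Below it stood 5 genes whose mean levels over the 10 libraries lay between 23770.1 and 28148 TPM. They were Mylpf (the fast regulatory light chain), Tnni2 (fast troponin I, the inhibitory subunit), Myl1 (the fast essential light chain), Pvalb (parvalbumin, a soluble calcium buffer of fast fibres) and Tpm1 (alpha tropomyosin). Neighbours in that order were not parted by their spread, since Tnnc2 was above Mylpf in 8 of 10 libraries, Mylpf above Tnni2 in 5, Tnni2 above Myl1 in 3, Myl1 above Pvalb in 5 and Pvalb above Tpm1 in 6. Actn3, the alpha-actinin of fast-fibre Z-discs, and Mybpc2, the fast myosin-binding protein C of the thick filament, lay clearly lower. Their levels were 5552 ± 2035 TPM in COPD and 6322 ± 1693 TPM in control (SD, n = 5 each) and 2356 ± 227 TPM in COPD and 2271 ± 434 TPM in control (SD, n = 5 each), and every library had Tpm1 above Actn3 and Actn3 above Mybpc2.

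**Figure D1:**
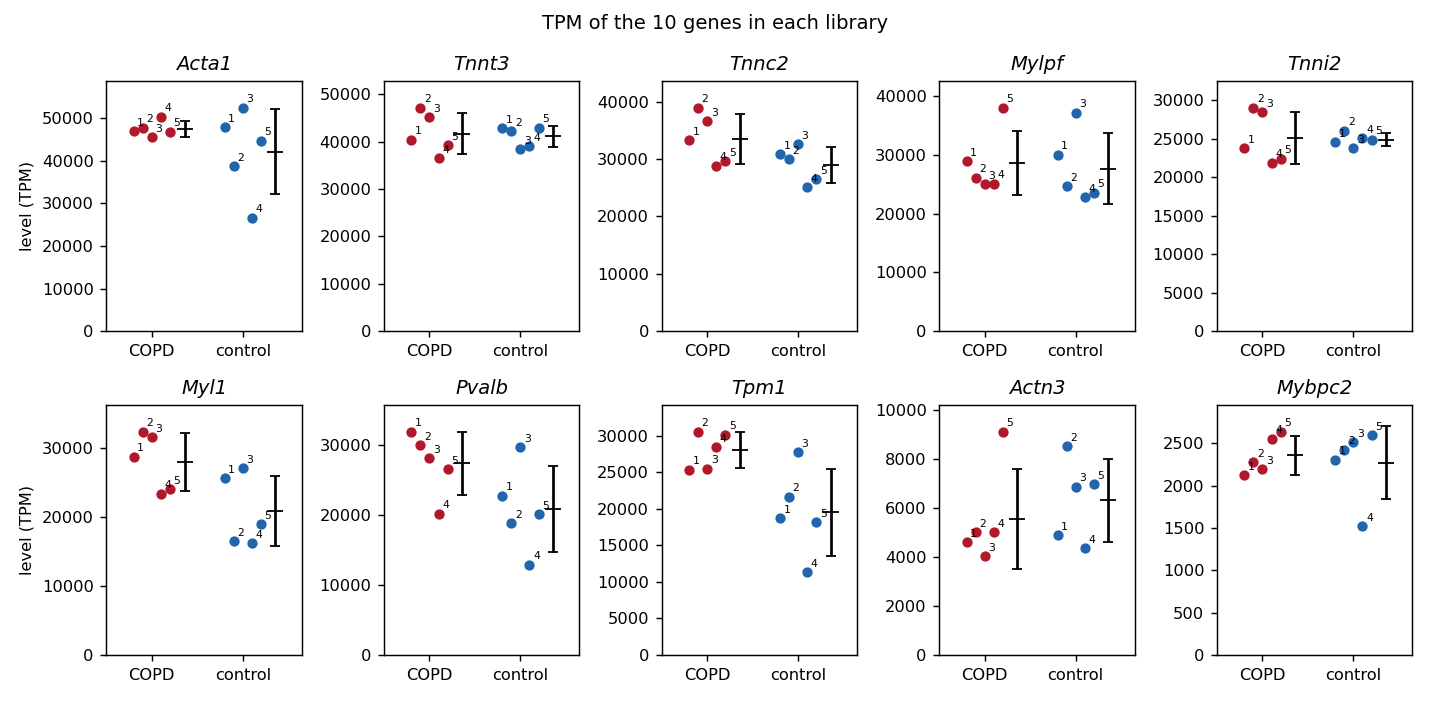
Level of each gene in TPM in the 5 COPD (red) and 5 control (blue) libraries, numbered by replicate, with the mean and SD beside each group. Control replicate 4 was the lowest library for 7 of the 10 genes, and COPD libraries of Acta1 lay between 45512 and 50339 TPM.

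Promoter sequence is shown for Acta1, the most abundant of the genes, and Tpm1, which had the largest difference. The RefSeq table (GRCm38.p6) held 8 windows, of 250 bases before to 50 after a start, for 7 of the 10 genes. Motifs were searched on both strands. TATAAA was in 2 of 8 against 13.6% of 32851 windows, the E-box CANNTG in 7 of 8 against 72.3%, the CArG box, which serum response factor binds, in 1 of 8 against 1.63%, the MEF2 site in 1 of 8 against 3.19% and the MEF3 site TCAGGTT in 0 of 8 against 4.07%. No match overlapped another in the windows of these genes. Capitals mark the CArG box and TATAAA in Acta1, and the Tpm1 stretch holds none of the 5 motifs. The stretches are the 150 bases before the listed start, on the gene's strand (minus for both), chr8:123894776-123894925 for Acta1 and chr9:67049214-67049363 for Tpm1.
Acta1: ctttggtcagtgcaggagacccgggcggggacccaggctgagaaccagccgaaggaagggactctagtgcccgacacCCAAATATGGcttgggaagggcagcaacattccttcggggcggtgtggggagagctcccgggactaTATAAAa
Tpm1: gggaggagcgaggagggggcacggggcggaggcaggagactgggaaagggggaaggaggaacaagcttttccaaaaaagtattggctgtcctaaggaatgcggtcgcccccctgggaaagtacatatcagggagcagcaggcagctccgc

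Libraries were compared on TMM-scaled CPM (counts set relative to each library's effective total, so that most genes centre on no difference), by edgeR's quasi-likelihood test over 12697 genes with Benjamini-Hochberg adjustment over all of them. None of the 10 genes passed an adjusted p of 0.05 (0 of 10 by edgeR, against 0.063% of all tested genes called, 8 genes). At an unadjusted p under 0.05 there were 4 of 10 genes, all higher in COPD, where 14.6% of all tested genes were below it (7.94% higher). That count was 2 without COPD replicate 2, control replicate 4 or control replicate 5, where 11.8%, 13% and 12.2% of all tested genes were below it. It was 6 without control replicate 3, where 13.4% were. With limma on log2(TPM + 1) without a filter it was 0, where 20.4% were. DESeq2 called 1 of the 10, Tpm1, where it called 2.31% of its tested genes (unadjusted p under 0.05 for 6 of 10, against 11.4%). The log2 fold change, COPD over control, lay above 0 for 10 of 10 genes, where 48% of all tested genes did, and its median was 0.31 against -0.011 for all tested genes. Groups did not overlap for 0 of the 10 genes, against 2.84% of all tested genes (1.29% higher).

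Size and sign depended on the scaling for the smaller differences. With library totals alone the median of all tested genes lay at -0.17 on the log2 scale, and with limma on log2(TPM + 1) at -0.18, beside TMM factors of 0.948 ± 0.0196 in COPD and 1.06 ± 0.0618 in control (SD, n = 5 each). By limma 0 of the 10 genes passed, where 0.599% of all tested genes did, and 2 of 10 had an unadjusted p under 0.05, where 26.8% did. Relative to that shift, the median of the 10 genes lay 0.32 above the median of all genes with TMM, 0.33 above it with library totals and 0.32 above it with TPM. Tpm1, Myl1 and Pvalb kept log2 fold changes of 0.58, 0.45 and 0.43 in TPM, whereas those of Tnni2, Tnnt3 and Mylpf were 0.0038, 0.017 and 0.057. Actn3, at 0.0023 ± 0.24 with TMM, changed sign with the scaling and was at -0.14 with library totals and -0.21 in TPM, close to the median of all genes on each scale.

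**Figure D2:**
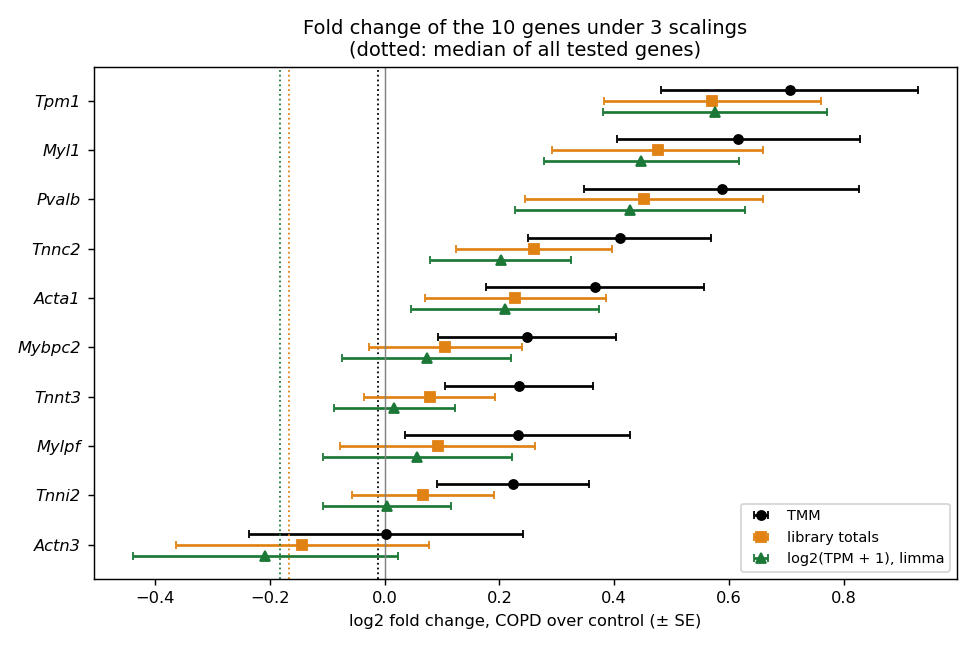
Log2 fold change of each gene, COPD over control, with its standard error, after TMM scaling (black circles, edgeR), scaling by library totals (orange squares, edgeR) and on log2(TPM + 1) (green triangles, limma), with dotted lines at the median of all tested genes. Tpm1, Myl1 and Pvalb lay farthest to the right in all 3 and Actn3 farthest to the left.

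On the thin filament, the largest difference was that of Tpm1, which encodes the coiled-coil strand that blocks myosin binding at rest. It had 20918, 24755, 19249, 20807 and 21859 CPM in COPD replicates 1 to 5, against 12259, 14019, 20849, 7394 and 11466 CPM in control replicates 1 to 5. Every COPD library was above 4 of the 5 controls, control replicate 3 lay among the COPD libraries and control replicate 4 was the lowest of all. The means were 21518 ± 2038 CPM in COPD and 13198 ± 4919 CPM in control (SD, n = 5 each), with a log2 fold change 0.71 ± 0.22 (SE), adjusted p = 0.191 by edgeR. DESeq2 gave 0.71 with an adjusted p of 0.044. Without control replicate 4 the log2 fold change was 0.55 and without control replicate 3 it was 0.93, neither past edgeR's threshold.

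Acta1 had 47499, 47574, 42199, 45259.8 and 41705 CPM in COPD replicates 1 to 5, against 38568, 30819, 48438, 21374 and 34739 CPM in control replicates 1 to 5. All 5 COPD libraries were above 4 of the 5 controls and below control replicate 3. The means were 44847 ± 2807 CPM in COPD and 34788 ± 9954 CPM in control (SD, n = 5 each), and the difference did not pass (log2 fold change 0.37 ± 0.19 (SE), adjusted p = 0.404, edgeR). Its log2 fold change was 0.23 without control replicate 4. The spread was unequal, with a coefficient of variation of 6.26% in COPD and 28.6% in control. Expected counts of Acta1 were not whole numbers in any of the 10 libraries, as happens when reads that match several genes are shared out, and skeletal actin has close relatives among the actin genes, so that its level is uncertain to that extent. The same held for Actn3 and Mybpc2 in 10 libraries, Mylpf in 9, Tpm1 in 8 and Myl1 in 6, while the counts of the 3 troponins and Pvalb were whole in every library.

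Among the troponins, Tnnc2 had 15129.8, 17401, 15251, 11644 and 11859.7 CPM in COPD replicates 1 to 5, against 11140.2, 10727, 13527, 9050.0 and 9238 CPM in control replicates 1 to 5. COPD replicates 1, 2 and 3 were above every control, and COPD replicates 4 and 5 were above 4 of the 5 controls. The difference did not pass (log2 fold change 0.41 ± 0.16 (SE), adjusted p = 0.269, edgeR), and it had an unadjusted p of 0.0238. In the GRCm38 annotation an exon of Tnnc2 overlaps Ube2c on the opposite strand, a gene with at most 26.7 counts in any library.

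Tnni2 and Tnnt3 had the narrowest spread among controls. Tnni2 lay between 9265 and 13587 CPM in COPD, with a median of 11337, and between 9085 and 10335 CPM in control, with a median of 9466. Tnnt3 lay between 22549 and 32103 CPM in COPD, with a median of 28044, and between 21430.5 and 24234 CPM in control, with a median of 22913. In both, COPD replicates 1, 2 and 3 were above every control and COPD replicates 4 and 5 lay at the level of the controls. This order depended on the scaling, since in TPM both genes were above every control in COPD replicates 2 and 3 alone. COPD replicate 1 had 23759 TPM of Tnni2, against 23756 to 26040 TPM in control. COPD replicates 4 and 5, at 21869 and 22382 TPM of Tnni2, were below every control. For Tnnt3, COPD replicate 4 was below every control, at 36535 TPM against 38423 to 42951 TPM. The coefficients of variation of Tnni2 were 16.8% in COPD and 5.07% in control, and those of Tnnt3 14.2% and 4.55%. Neither difference passed by edgeR (log2 fold change 0.22 ± 0.13 (SE), adjusted p = 0.472, for Tnni2, and log2 fold change 0.23 ± 0.13 (SE), adjusted p = 0.433, for Tnnt3). Without COPD replicate 2 the log2 fold change of Tnni2 was 0.15.

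On the thick filament, Myl1 had 16530.1, 18285, 16603, 12016 and 12537 CPM in COPD replicates 1 to 5, against 11889, 7441, 14483, 7327 and 8421 CPM in control replicates 1 to 5. COPD replicates 1, 2 and 3 were the highest libraries, control replicate 3 was next, and control replicates 2, 4 and 5 were below all others. The means were 15194 ± 2761 CPM in COPD and 9912 ± 3155 CPM in control (SD, n = 5 each), with a log2 fold change 0.62 ± 0.21 (SE), adjusted p = 0.222 by edgeR, which did not pass. Its partner on the same myosin neck, Mylpf, had another order of libraries. Mylpf had 13596, 12090.2, 10778, 10619.5 and 15963 CPM in COPD replicates 1 to 5, against 11331, 9271, 16021, 8451 and 8614 CPM in control replicates 1 to 5, with control replicate 3 and COPD replicate 5 the highest (log2 fold change 0.23 ± 0.20 (SE), adjusted p = 0.634, edgeR). Its log2 fold change was 0.13 without COPD replicate 5, 0.42 without control replicate 3 and 0.10 among the 7 libraries that have Y-linked transcripts. Mybpc2 lay between 5079.7 and 5869 CPM in COPD, with a median of 5659, and between 3041 and 5795 CPM in control, with a median of 4814, and control replicate 4 was far below the rest (log2 fold change 0.25 ± 0.16 (SE), adjusted p = 0.497, edgeR). Its log2 fold change was 0.13 without control replicate 4.

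Pvalb, whose protein speeds relaxation by taking up calcium, had 20556, 18974, 16579, 11549 and 15042 CPM in COPD replicates 1 to 5, against 11654, 9517, 17416, 6569 and 9906 CPM in control replicates 1 to 5. COPD replicates 1 and 2 were above every control, COPD replicate 4 was at the level of control replicate 1, and control replicate 4 was the lowest. The means were 16540 ± 3508 CPM in COPD and 11012 ± 4019.7 CPM in control (SD, n = 5 each), and the difference did not pass (log2 fold change 0.59 ± 0.24 (SE), adjusted p = 0.288, edgeR). Its log2 fold change was 0.45 without control replicate 4 and 0.81 without control replicate 3.

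Actn3 stood apart from the other 9. It had 9228, 9879, 7381, 8930.0 and 16092 CPM in COPD replicates 1 to 5, against 7798, 13449, 12568, 6923 and 10692 CPM in control replicates 1 to 5. COPD replicate 5 was the highest library, control replicates 2 and 3 came next, and COPD replicates 1 to 4 lay inside the range of the controls. The means were 10302 ± 3364 CPM in COPD and 10286 ± 2867 CPM in control (SD, n = 5 each) (log2 fold change 0.0023 ± 0.24 (SE), adjusted p = 0.998, edgeR). The sign turned when a single library was left out, the log2 fold change being -0.22 without COPD replicate 5, -0.083 without control replicate 1 and -0.11 without control replicate 4.

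**Figure D3:**
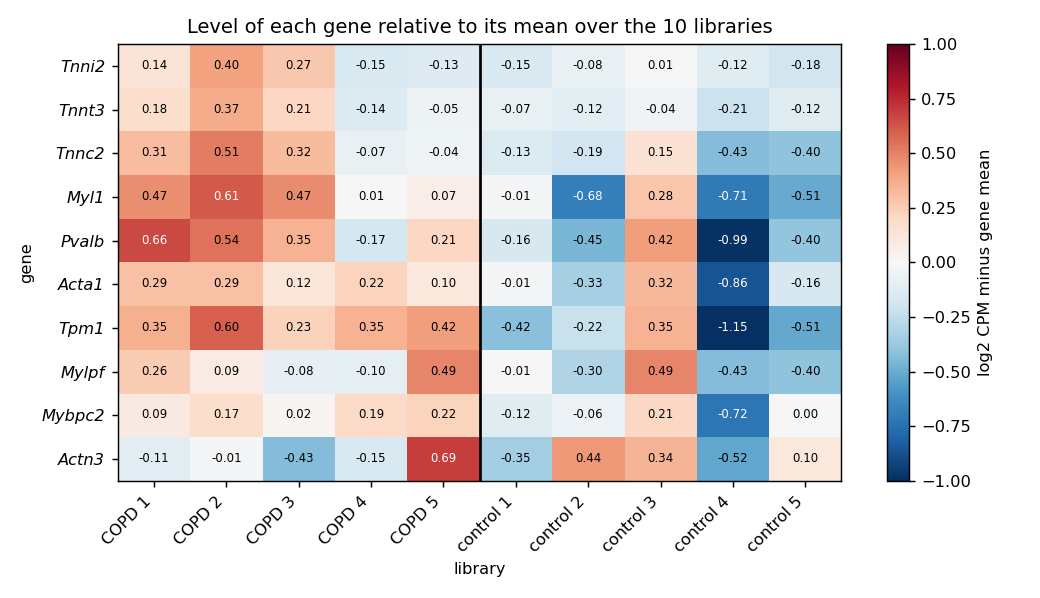
Log2 CPM of each gene (rows) in each library (columns, COPD left of the black line, control right of it) minus the gene's mean over the 10 libraries. Control replicate 4 was below the mean in all 10 genes, from -0.12 in Tnni2 to -1.15 in Tpm1, and the 3 troponins and Myl1 were highest in COPD replicates 1 to 3.

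COPD replicates 1, 4 and 5 lack Y-linked transcripts, so the comparison was also made over the 7 libraries that have them, COPD replicates 2 and 3 against the 5 controls. There 0 of the 10 genes passed by edgeR, where 3.7% of all tested genes did, and 6 of 10 had an unadjusted p under 0.05, where 20.4% of all tested genes did. The troponins were farther from 0 there, with log2 fold changes of 0.45 for Tnni2, 0.41 for Tnnt3 and 0.62 for Tnnc2. Myl1 was at 0.83, Tpm1 at 0.75 and Actn3 at -0.24. The libraries without Y-linked transcripts are all COPD, so no such comparison exists among them. Leaving out COPD replicate 5 gave 0 of the 10 genes by edgeR, where 3.21% of all tested genes passed, and 4 of 10 at an unadjusted p under 0.05, where 20.8% did.

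The genes did not vary as 1 block. Deviations of log2 CPM from the group means were compared between genes over the 10 libraries, as a description, since the values share each library's depth and scaling factor. Pearson's r lay above 0 for 41 of the 45 pairs, with a median of 0.63, and for 28 of 45 pairs, with a median of 0.22, without control replicates 3 and 4. The troponins kept together, at r = 0.94 for Tnni2 and Tnnt3 and 0.87 for Tnnc2 and Tnnt3 (0.97 and 0.94 without those 2 controls). Myl1 and Pvalb were at 0.89 (0.82 without them). The closeness of Tpm1 to Acta1 and to Mybpc2, at 0.89 and 0.90, rested on those 2 controls, being -0.079 and 0.34 without them. Actn3 ranged from -0.23 with Tnni2 to 0.67 with Mybpc2 and was above 0 with 6 of the other 9 genes, among them Tpm1 at 0.61 and Mylpf at 0.54. Without control replicates 3 and 4 it was above 0 with those 3 genes alone, at 0.71, 0.48 and 0.41, and lowest with Myl1, at -0.65.

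Ratios of TPM within a library do not depend on the scaling between libraries, and the pairs given here were chosen after the values had been seen. The ratio of Tnnt3 to Tnni2 was 1.7, 1.63, 1.59, 1.67 and 1.75 in COPD replicates 1 to 5, against 1.75, 1.62, 1.62, 1.55 and 1.73 in control replicates 1 to 5. It was nearly constant, its highest value being 1.13 times its lowest. Tnni2 and Tnnt3 are close neighbours in the mouse genome, with Lsp1 as the 1 gene listed between them in RefSeq. The ratio of Myl1 to Mylpf was 0.995, 1.24, 1.26, 0.932 and 0.633 in COPD replicates 1 to 5, against 0.853, 0.669, 0.727, 0.712 and 0.804 in control replicates 1 to 5, so that COPD replicates 1 to 4 were above every control and COPD replicate 5 below every control. The ratio of Mybpc2 to Tpm1 was 0.0745 to 0.0896 in COPD and 0.0906 to 0.143 in control, without overlap but with neighbouring ends. All other ratios of the 7 examined overlapped between groups. Single genes did not overlap in CPM, in either direction, in 2.84% of all tested genes. The ratio of Actn3 to Acta1 had the widest range of the 7 ratios examined, from 0.0883 to 0.195 in COPD and from 0.102 to 0.22 in control.

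**Figure D4:**
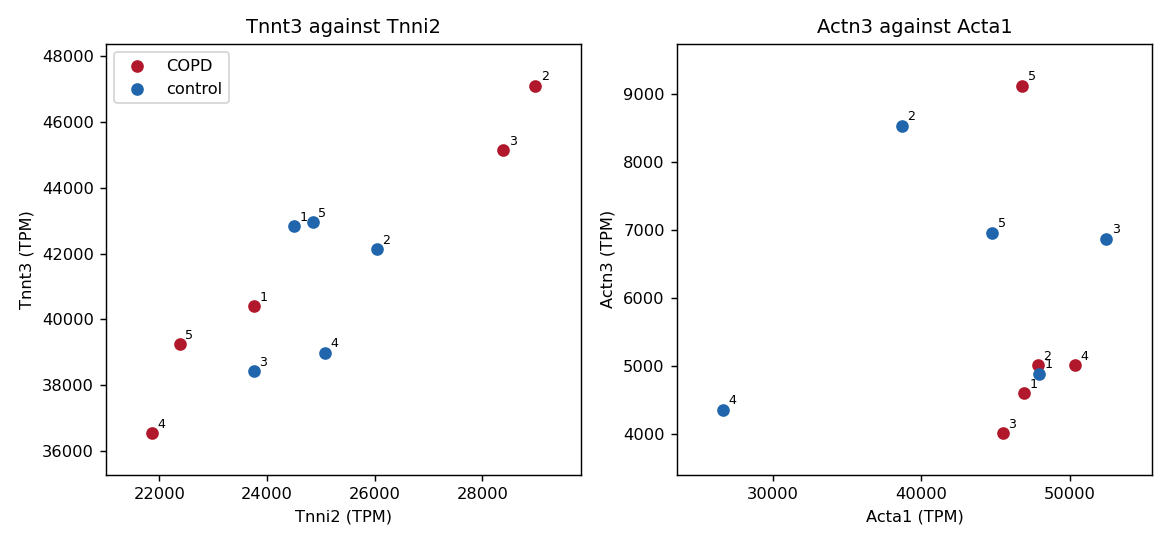
TPM of Tnnt3 against Tnni2 (left) and of Actn3 against Acta1 (right), 1 point per library, COPD red and control blue, numbered by replicate; the axes do not start at 0. Tnnt3 follows Tnni2 across the libraries of both groups, while Actn3 in COPD replicate 5 lies at 9118 TPM, at an Acta1 level like that of the other COPD libraries.

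Each fast gene was set against a counterpart within the same library, as log2 of (TPM + 1) over (TPM + 1), as a description without a test. Slow counterparts were Myl3, Myl2, Tnni1, Tnnt1, Tnnc1 and Tpm3. The others were Actn2, an alpha-actinin of all fibre types, Mybpc1, the slow myosin-binding protein C, and Actc1, the cardiac actin. The 6 ratios to slow forms had higher means in COPD, with differences of 0.95 for Mylpf over Myl2 to 1.74 for Myl1 over Myl3. The ratio of Tpm1 to Tpm3 was 8.79, 9.79, 9.07, 9.04 and 8.46 in COPD replicates 1 to 5, against 6.21, 8.04, 8.41, 5.93 and 8.28 in control replicates 1 to 5. All COPD libraries were above all controls in this pair, the only such pair of the 9 (single genes did so, in either direction, in 2.84% of all tested genes).

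The slow forms carried most of these differences, the fast members of the 6 pairs differing by 0.0038 to 0.58 on the log2(TPM + 1) scale. Tnni1, the slow troponin I, had 12.8, 6.03, 3.23, 7.61 and 23.5 TPM in COPD replicates 1 to 5, against 101, 13.5, 11.5, 68.8 and 7.84 TPM in control replicates 1 to 5. Control replicates 1 and 4 were far above every other library, and the ratio of Tnni2 to Tnni1 was 11.32 ± 1.11 in COPD and 9.91 ± 1.60 in control (SD, n = 5 each), with groups that overlapped. Summed over Myh7, Tnnt1, Tnni1, Tnnc1 and Myl3, the slow-fibre markers were at 111, 58.3, 33.2, 114 and 284 TPM in COPD replicates 1 to 5, against 793, 137, 127, 527 and 93.5 TPM in control replicates 1 to 5. All 5 markers had log2 fold changes below 0, where 48% of all tested genes lay above 0. By edgeR 0 passed, where 0.063% of all tested genes did, and 2 had an unadjusted p under 0.05, where 14.6% did. Control replicate 4, lowest in most of the fast genes, was thus second highest in slow markers, and the part of fibre make-up in the differences was not tested. The ratios of Actn3 to Actn2 and of Mybpc2 to Mybpc1 were 3.14 ± 0.63 in COPD and 3.28 ± 1.09 in control, and 1.55 ± 0.69 in COPD and 1.41 ± 1.02 in control (SD, n = 5 each).

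**Figure D5:**
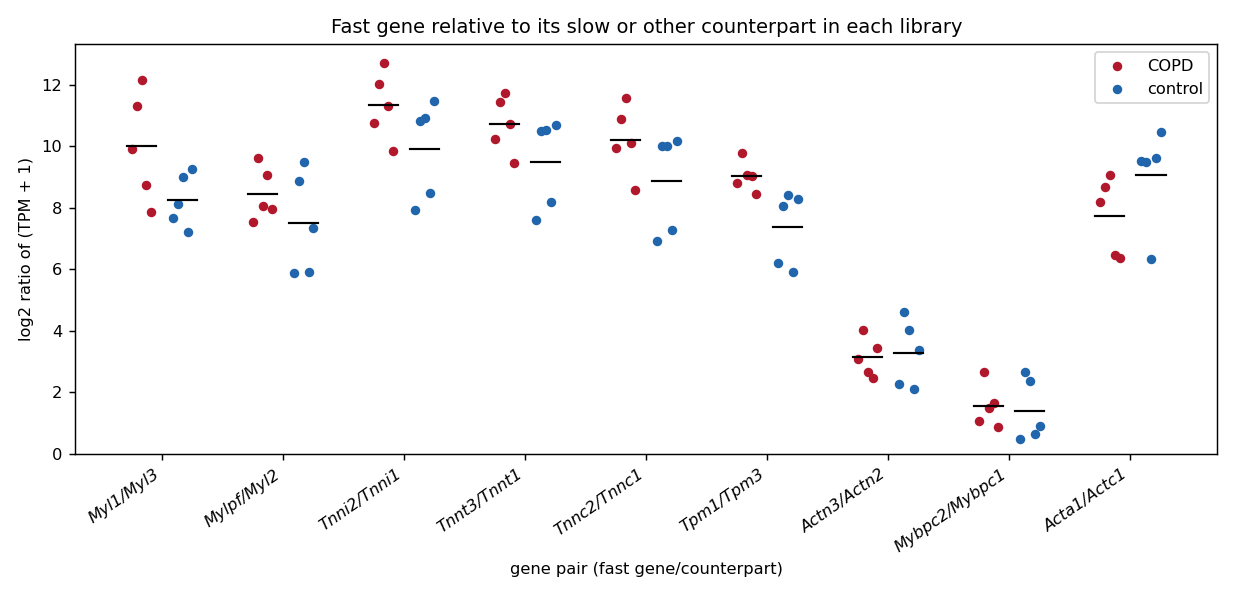
Log2 ratio of (TPM + 1) of each fast gene to its counterpart, 1 point per library, COPD (red) left and control (blue) right of each tick, with black lines at the group means. The Tpm1 to Tpm3 ratio was at 8.46 or more in COPD and at 8.41 or less in control, and the other 8 pairs overlapped.

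Other genes of the fast programme and the sarcomere were taken from a list of 25, all tested. None passed over all genes by edgeR (an unadjusted p under 0.05 was reached by 6 in the higher and 1 in the lower direction, where 14.6% of all tested genes did so, 7.94% in the higher direction), and the median log2 fold change was 0.13. Those with the smallest p were Eno3 (muscle enolase, log2 fold change 0.53 ± 0.13 (SE), adjusted p = 0.105), Pgam2 (muscle phosphoglycerate mutase, log2 fold change 0.69 ± 0.17 (SE), adjusted p = 0.107) and Tpm2 (beta tropomyosin, log2 fold change 0.42 ± 0.12 (SE), adjusted p = 0.147). Tpm2 had 9922, 10290.3, 10908, 10051 and 9619.9 CPM in COPD replicates 1 to 5, against 8274, 6143, 8674, 7135 and 7611 CPM in control replicates 1 to 5. In Tpm2 and in Eno3 all COPD libraries were above all controls, as in 1.29% of all tested genes. Chosen after their values were seen, the fast myosin heavy chain Myh4 was at a log2 fold change of 0.29 ± 0.20 and the calcium pump Atp2a1 at 0.068 ± 0.16.

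Of 23 slow-fibre and other-muscle counterparts, 21 were tested, 0 passed by edgeR in either direction (an unadjusted p under 0.05 was reached by 3 in each direction, where 14.6% of all tested genes did so, 7.94% in the higher direction), and the median log2 fold change was -0.57. The smallest p belonged to cytoskeletal rather than sarcomeric forms. Actg1, the gamma actin of the cytoskeleton, had 446, 379, 330.1, 317 and 287 CPM in COPD replicates 1 to 5, against 229, 203, 243, 205 and 187 CPM in control replicates 1 to 5, with no overlap between groups (log2 fold change 0.72 ± 0.13 (SE), adjusted p = 0.0627, edgeR). Such a lack of overlap, in the higher direction, was found in 1.29% of all tested genes. Tpm4 and Actb, a cytoskeletal tropomyosin and the beta actin, were at 0.58 ± 0.14 and 0.42 ± 0.15 (SE; adjusted p = 0.104 and 0.222, edgeR). The slow counterparts lay below 0, from -1.70 ± 0.71 for Tnni1, -1.43 ± 0.63 for Tnnt1, -1.38 ± 0.70 for Tnnc1 and -1.02 ± 0.64 for Myl2 to -0.81 ± 0.31 for Tpm3 and -0.71 ± 0.61 for Myl3. Mybpc1 and Actn2, counted in the list of fast and sarcomere genes above, and Actc1 were at 0.063 ± 0.40, 0.054 ± 0.33 and 0.89 ± 0.90. None passed the threshold.

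The genes whose within-group deviations were most like the mean of the 10 were sought among 9027 other genes with at least 5 CPM on average, over the 10 libraries. They were Casq1, the calcium store protein of the sarcoplasmic reticulum (r = 0.94), Pygm, muscle glycogen phosphorylase (0.92), Ak1, adenylate kinase (0.92), Capzb, which caps the barbed end of the thin filament at the Z-disc (0.91), and Myoz3, a Z-disc protein (0.91). Without control replicates 3 and 4 their r lay between 0.63 and 0.80. Casq1 had 4303, 4474, 4188, 3599.6 and 4435 CPM in COPD replicates 1 to 5, against 3416, 2585, 4002, 1755 and 2629 CPM in control replicates 1 to 5. Control replicate 4 was its lowest library, which the choice by likeness to the 10 genes favours.

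Several of these genes make more than 1 transcript form, so the ratio of expected count to TPM, which follows the abundance-weighted transcript length, was examined in each library relative to the library's median over 7409 genes. It moved little. In Tnni2, Tnnc2, Pvalb and Actn3 it moved alike from library to library, with a range of 1.1% of the mean. That movement is the library median's own, so the measure tells nothing of transcript forms in these genes. For Tpm1 the ratio was 0.414 ± 0.00173 in COPD and 0.414 ± 0.0021 in control, and for Tnnt3 0.349 ± 0.0013 and 0.348 ± 0.00172 (SD, n = 5 each). Myl1 had the widest range of the 10, 3.04% of its mean, against a median of 1.53% over the 7409 genes, and the groups overlapped. A change of splice form that leaves the length alike would not show in this measure.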

How the data were processed

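Expected counts and TPM were deposited by the authors, each for 18025 gene symbols in 10 libraries; TPM are per transcript length and sum to the same total in each. The expected counts are estimates, and 30.7% were not whole (tolerance 1e-06). Per the submitters' processing notes, the tools were RSEM 1.2.12, HISAT2 2.0.4, Bowtie2 2.2.5 and DESeq2 1.4.5 and the build was mm9, with no role or order given. Use of strand in counting is not given. Groups and replicate numbers came from the sample titles.

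Expected counts were rounded. After filterByExpr and TMM scaling, edgeR 4.0.16 (glmQLFit, glmQLFTest) compared COPD with control over all kept genes, with p-values adjusted by Benjamini-Hochberg and a threshold of 0.05. Standard errors were the size of the log2 fold change over the root of F. Per-gene levels are compared in TPM, libraries in TMM-scaled CPM. Log2 CPM for deviations used a prior count of 2. Overlapping exons were read from GENCODE M21 (GRCm38), another build than the files', so only gene names were taken. Alternatives were DESeq2 1.42.0, limma 3.58.1 on log2 TPM (mean of at least 1 TPM), voom with sample weights, other scalings and filters, a block for the replicate number, a term for Y-linked transcripts (1 CPM or more) and leaving out libraries. Software was R 4.3.3 and matplotlib 3.10.9.

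The genes, the lists and the alternatives were chosen with earlier results of these data known. All 10 genes were named. From the lists of other genes, any past the threshold, the counterparts of the 10 and the 3 with the smallest p of each list were named, with Myh4 and Atp2a1 added after their values were seen. The 5 genes most alike in pattern were taken by Pearson's r, leaving out predicted and clone-named genes. Library totals of 14085854 to 17251034 counts put these genes far above counting error, so the spread between libraries limits the precision.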

Additional observations from a re-analysis of the deposited data

Results flagged for a closer look

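In 58 groups of 5 values (TPM and CPM of the 10 genes, and the 9 ratios), 4 held a library whose gap to its neighbour exceeded Dixon's 95% critical value of 0.71 of the group's range; chance gives about 1 in 20 groups. Actn3 in COPD replicate 5 was at 9118 TPM, against 4018 to 5013 TPM in the other COPD libraries, a gap of 0.805 of the range. On the CPM scale the same library was at 16092, against 7381 to 9879 CPM in the others. That library also lay among the controls on the first principal component. Like COPD replicates 1 and 4, at 4600 and 5013 TPM of Actn3, it lacked Y-linked transcripts. The part of these traits in the level of Actn3 was not tested. Mybpc2 in control replicate 4 was at 1520.5 TPM, against 2302 to 2597 TPM in the other controls, a gap of 0.727 of the range.

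The log2 ratio of Acta1 to Actc1 in control replicate 3 was 6.34, against 9.47 to 10.45 in the other controls. Actc1, the cardiac actin, had 161, 115, 84.9, 571 and 567 TPM in COPD replicates 1 to 5, against 64.8, 53.5, 648, 33 and 31 TPM in control replicates 1 to 5. It was high in COPD replicates 4 and 5 and in control replicate 3 alone. Summed over Myh6, Nppa, Tnnt2, Tnni3 and Mybpc3, the cardiac markers ranged from 4.91 to 14.6 TPM in COPD and from 6.75 to 22.7 TPM in control, with Tnni3 and Mybpc3 under 1 TPM in every library and Tnnt2 the highest of them, at 3.29 to 10.38 TPM in COPD and 5.19 to 16.2 TPM in control. In the libraries highest in Actc1 their sum was 4.91 TPM in COPD replicate 4, 8.1 TPM in COPD replicate 5 and 12.45 TPM in control replicate 3.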

How the results depend on the processing

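None of the 10 genes passed under any of the 24 alternatives except Tpm1 by DESeq2 (1 gene; log2 fold change 0.71, adjusted p = 0.044). Its adjusted p under the other alternatives lay between 0.0995 and 0.329. The median log2 fold change of the 10 genes stayed above 0, from 0.14 with TPM to 0.46 without control replicate 3, and was 0.23 to 0.46 when 1 library was left out. Genes other than Actn3 kept a log2 fold change above 0 under all of them. Actn3, at 0.0023 with TMM, was at -0.023 with upper-quartile factors, -0.14 with library totals, -0.10 with totals that leave out the 10 genes, -0.0067 without a filter on low counts, -0.18 with voom weights and -0.21 with limma on log2(TPM + 1), on log2(TPM + 0.1) and without a filter. It was -0.24 over the libraries with Y-linked transcripts, -0.25 with a term for them, -0.048 without control replicates 3 and 4 (chosen after seeing the data), and -0.22 to 0.12 when 1 library was left out. Over all genes, edgeR called 8. The count was 414 by DESeq2, 17 without a filter, 67 and 65 with limma on log2(TPM + 1) and log2(TPM + 0.1), 2 with limma unfiltered, 137 with voom weights, 488 over the libraries with Y-linked transcripts, 216 with a term for them and 0 by edgeR without control replicates 3 and 4 (1461 at an unadjusted p under 0.05). It ran from 0 without COPD replicate 2 (1510 at an unadjusted p under 0.05) to 410 without COPD replicate 5; the cause was not tested.

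With the replicate number as a block, edgeR called 7 genes, 0 of the 10 among them, and Actn3 was at -0.00049. Libraries of the same number did not deviate together (r from -0.14 to 0.0413 over 5 pairs), and 0 of 5 COPD libraries correlated best with the control of its own number. The 9 ratios kept their direction with a pseudocount of 0.1 and on the CPM scale.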
